A study of Mus musculus with 15 samples.

Results

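Kidneys of wild-type mice were compared 14 days after unilateral ureteral obstruction (UUO) on a Si-based diet, called UUO_Si, and on a normal diet, called UUO. The 12 libraries, 6 in each group, were chosen by the operation and diet in their labels, out of 15 libraries in all. The other 3 came from sham-operated kidneys on the normal diet and are used as a reference level, and no sham kidney on the Si-based diet was analysed here. Total RNA was sequenced and counted per gene, and the level of a gene is its CPM, its share of the scaled library total in counts per 1000000. The labels give neither strain, sex, age and dose nor whether replicates of a group were separate animals, so p-values measure the spread between these samples.

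Tying 1 ureter lets urine pressure injure the tubules of that kidney, macrophages enter, and fibroblasts and pericytes turn into myofibroblasts that lay down collagen. Proximal and distal tubule cells lose their transporters over the same days. Silicon fine particles taken by mouth are known as a source of hydrogen in the gut, and hydrogen has been studied as a quencher of hydroxyl radicals; the labels name the diet only as Si-based. The series was set up to learn how this diet acts on renal transcripts after obstruction. Every library of both obstructed groups carried the injury transcript Havcr1 (KIM-1) at 61.7 to 288 CPM, against at most 1.29 CPM in sham, so the operation is visible in all 12.

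Total counts per library, in units of 1000000, were 9.44 ± 1.23 in UUO_Si and 13.0 ± 1.84 in UUO (SD, n = 6 each), a difference that passed (exact two-sided permutation p = 0.00433, adjusted p = 0.0390 over 9 library measures). The other 8 measures did not pass, among them the first principal component (46.1% of the variance, adjusted p = 0.735) and the mean distance of a library to the others of its group (0.562 in UUO_Si, 0.568 in UUO, adjusted p = 0.803). UUO replicates 5 and 6 and UUO_Si replicate 6, with sham replicate 3, had counts in 828 to 1281 of 1456 olfactory and vomeronasal receptor genes, against 101 to 166 in the others. They are called the receptor-gene libraries below. UUO replicates 5 and 6 and UUO_Si replicate 6 also carry sample codes of other series than the rest of their groups, and the labels do not say what such a code stands for. Leaving out the receptor-gene libraries therefore compares 4 UUO with 5 UUO_Si libraries of 1 code series each.

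No single gene passed between the diets, and most expressed genes were measured closely enough to exclude a large difference. Of 16752 genes tested, 0 (0%) had an adjusted p under 0.05 in edgeR's quasi-likelihood test, where the smallest was 0.874, for Phlda1. At an unadjusted p under 0.05 there were 373 genes lower in UUO_Si (2.23%) and 253 higher (1.51%), 626 in all (3.74%). The groups did not overlap in 34 genes (0.203%), 16 lower (0.0955%) and 18 higher (0.107%). DESeq2 called 2 genes, Phlda1 and Sfrp4, and limma-voom called 0. The same test called 9036 genes (53.9%) between UUO and sham.

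The differences were small. The median absolute log2 fold change was 0.098 over all genes tested, the 99th percentile was 1.04, and the median absolute change of obstruction itself was 0.594. A difference of at least 2-fold was estimated for 193 genes, of which 28 had a mean of 5 CPM or more. Log2 fold changes are UUO_Si minus UUO throughout, so negative values are lower on the Si-based diet. Of all genes 49.7% were below 0 and 50.3% above it.

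The 95% intervals state what can be excluded gene by gene. The whole interval lay inside 2-fold in either direction for 14262 genes (85.1%) and inside 1.5-fold for 11144 (66.5%). A 2-fold decrease was excluded for 89.6% and a 2-fold increase for 91.7% of genes, and a 1.5-fold decrease and increase for 76.9% and 77.2%. The limit followed the level of a gene. Among genes of at least 5 CPM, 12522 of 12800 (97.8%) were inside 2-fold. Below 1 CPM the median half-width of the interval was 1.32 on the log2 scale and 4.68% of genes were inside 2-fold, while at 100 CPM or more the half-width was 0.207 and 93.1% were inside 1.5-fold. The intervals are for single genes and are not widened for the number of genes. A p that misses the threshold does not show that the diets act alike, and the intervals give what remains possible.

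**Figure D1:**
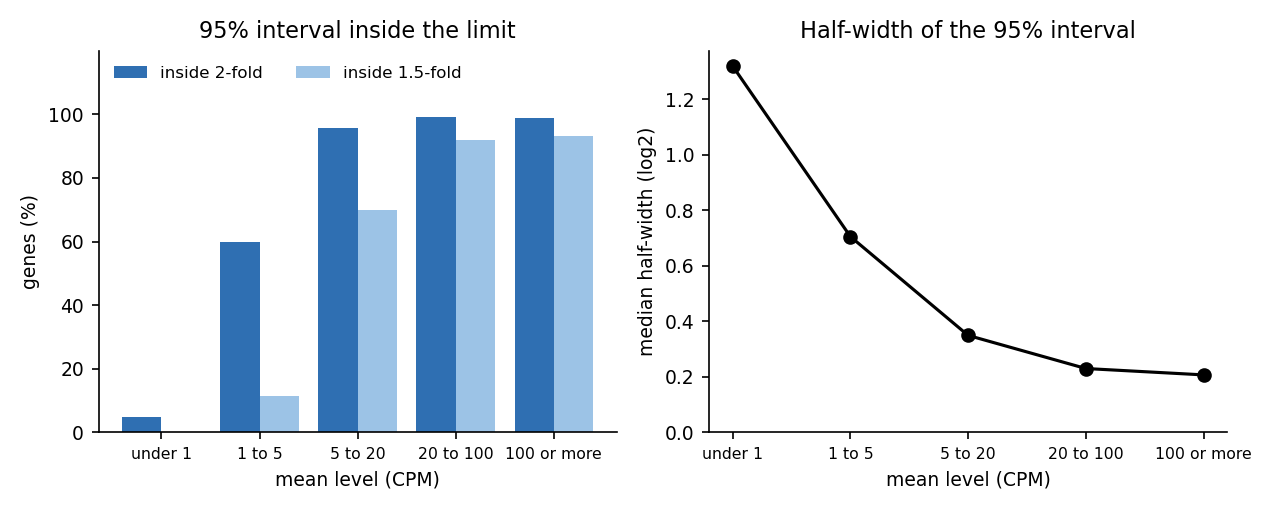
Share of genes with the 95% interval of the diet difference inside 2-fold and 1.5-fold (bars, %), and the median half-width of that interval on the log2 scale (line), by mean level in the 12 obstructed libraries. From 5 CPM upwards at least 95.6% of genes in each class lay inside 2-fold.

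Phlda1, a gene induced by growth factors, headed the order by p. It was at 18.5, 16.4, 15.7, 16.5, 19.5 and 16.8 CPM in UUO_Si replicates 1 to 6 and at 23.1, 20.3, 26.7, 26.6, 30.5 and 30.5 CPM in UUO replicates 1 to 6. Every UUO_Si library lay below every UUO library, while sham was at 11.2 to 14.5 CPM. Its log2 fold change was -0.61 ± 0.11 (SE), a 1.53-fold lower level with an interval from 1.80-fold lower to 0.774 of the UUO level. Phlda1 lies on GRCm38 chromosome 10, 111506286 to 111508645.

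Sfrp4 encodes a secreted Wnt antagonist of fibrotic tissue. UUO_Si libraries were at 7.26, 5.86, 2.38, 5.44, 6.78 and 11.8 CPM and UUO libraries at 15.3, 8.32, 16.1, 23, 32.3 and 35.2 CPM. Only UUO replicate 2 fell within the UUO_Si range. The difference was -1.71 ± 0.36 on the log2 scale, with an interval of -2.47 to -0.94 (chromosome 13, 19623104 to 19632994).

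The other genes with the smallest p stood on both sides. Estimates were lower in UUO_Si for Col5a1 (-0.57 ± 0.12), a chain of collagen V, Olfml2a (-0.82 ± 0.19), Igfbp2 (-1.08 ± 0.28), which binds insulin-like growth factors, and Fndc1 (-1.17 ± 0.31). Col16a1, a collagen of the fibril surface, was at 95.9 to 107 CPM in UUO_Si and 112 to 181 CPM in UUO, without overlap (-0.48 ± 0.12). Zfp703, a transcriptional repressor, was at 19.6 to 27.3 and 27.4 to 38.1 CPM, also without overlap but with a gap of little size (-0.43 ± 0.11). Mical2 (-0.37 ± 0.10), an actin oxidase, Lmod1 (-0.63 ± 0.16) and Actg2 (-2.32 ± 0.61), both of smooth muscle, completed the lower side.

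On the higher side stood Kcnj1, which encodes the potassium channel ROMK of the thick ascending limb and collecting duct. Its levels were 115, 97.4, 82.9, 106, 85.3 and 110 CPM in UUO_Si and 76.4, 76.6, 70.7, 83.1, 79.3 and 65.6 CPM in UUO (0.40 ± 0.09, interval 0.21 to 0.60). The groups touched in 1 library of each, and sham was far above both at 178 to 210 CPM. Nme7 (0.40 ± 0.09), Rmdn1 (0.43 ± 0.11), the lipid transporter gene Abca13 (0.55 ± 0.14), the sulfotransferase gene Sult1d1 (0.70 ± 0.18) and Folh1 (0.53 ± 0.14), a brush border peptidase, were also higher. Adjusted p was 0.999 in edgeR for each of these genes after Phlda1.

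**Figure D2:**
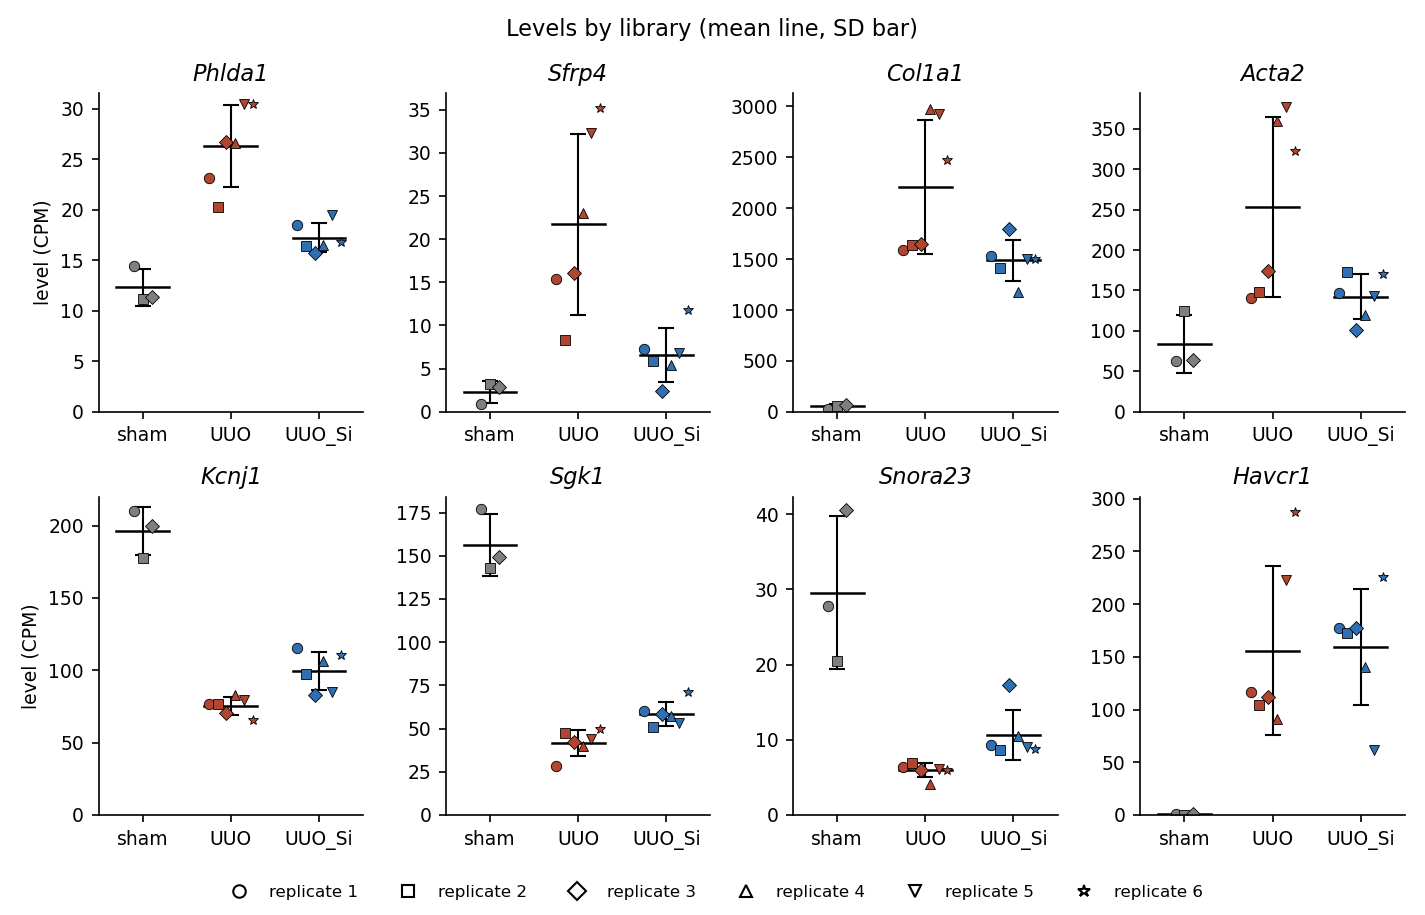
Level of 8 genes in each library (points, CPM), with group mean (line) and SD (bar), for sham (n = 3), UUO (n = 6) and UUO_Si (n = 6). There is 1 marker shape per replicate number, which the labels do not call a pairing. Phlda1, Sgk1 and Snora23 do not overlap between the diets, whereas UUO replicates 4 to 6 stand above all other libraries for Col1a1 and Acta2.

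Sgk1 and Usp2, which corticosteroids induce in the kidney, were also among the 20 genes with the smallest p. Sgk1, a kinase that keeps sodium channels at the cell surface, was at 60.4, 51.0, 58.3, 57.2, 53.3 and 71.1 CPM in UUO_Si and at 28.1, 47.4, 42.0, 39.8, 44.0 and 49.5 CPM in UUO. No UUO_Si library was as low as the highest UUO library (0.49 ± 0.12). Usp2, a clock-controlled ubiquitin protease, did not overlap either, at 36.4 to 65.2 against 26.9 to 36.2 CPM (0.51 ± 0.12). Nr1d1, which encodes the clock repressor REV-ERB alpha, stood lower without overlap, at 45.6 to 77.0 against 77.5 to 107 CPM (-0.45 ± 0.13). Per1, a clock gene that corticosteroids also induce, was at 0.49 ± 0.22 and Clock at 0.00 ± 0.08. Of 19 circadian genes 4 were higher and 1 lower at unadjusted p (all genes: 1.51% and 2.23%). Their median was 0.06 (-0.02 without the receptor-gene libraries), and the hour of tissue collection is not in the labels.

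Small nucleolar RNAs guide the modification of ribosomal RNA and are cut from introns of their host genes. Snora23 was at 9.35, 8.63, 17.3, 10.6, 9.05 and 8.75 CPM in UUO_Si and at 6.43, 6.85, 6.01, 4.18, 6.15 and 6.04 CPM in UUO, without overlap (0.83 ± 0.20). Sham libraries were at 20.5 to 40.5 CPM. Snora21, which was chosen after its values were seen, was at 28.6 to 46.6 CPM in UUO_Si and 22.8 to 32.2 CPM in UUO (0.45 ± 0.12), with overlap. Both RNAs are shown because they are whole transcripts of this class. An ACA box near the 3′ end is typical of the H/ACA kind, and the capitals mark the last ACA. The sequences are from GENCODE M21 transcripts on GRCm38, 5′ to 3′.
Snora23: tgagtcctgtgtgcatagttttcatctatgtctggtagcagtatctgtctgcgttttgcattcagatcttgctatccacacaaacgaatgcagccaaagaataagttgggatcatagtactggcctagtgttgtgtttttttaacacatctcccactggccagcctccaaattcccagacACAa
Snora21: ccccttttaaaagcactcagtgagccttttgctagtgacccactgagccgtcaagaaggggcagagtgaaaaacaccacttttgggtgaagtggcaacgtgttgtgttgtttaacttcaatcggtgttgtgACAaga
Snora23 has 184 bases and lies at chr7:110046364-110046547 on the plus strand, in an intron of Ipo7 and also within the antisense gene 1600010M07Rik. Snora21 has 137 bases and lies at chr11:97781639-97781775 on the minus strand, in an intron of the ribosomal protein gene Rpl23. The marked ACA stands 1 base before the end in Snora23 and 3 bases before it in Snora21. In Snora23 another ACA overlaps the marked one and stands 3 bases before the end. Which of them is the box was not tested. Reads of a host transcript that spans the intron could be counted for such genes, and reads of overlapping antisense genes cannot be told apart here.

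Of 62 small nucleolar RNA genes tested, out of 110 in the table, 55 were above 0, with a median of 0.33. At unadjusted p 12 were higher and 0 lower (all genes: 1.51% and 2.23%). This class was picked after its values were seen, so the counts describe these libraries only. Their summed level was 701 to 1040 CPM in UUO_Si, 585 to 790 CPM in UUO and 1051 to 1248 CPM in sham. The share of the ribosomal RNA gene Rn45s was 2.13% to 4.45% in UUO_Si and 2.07% to 3.26% in UUO, and its part in these levels was not tested.

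Most fibrillar and interstitial matrix genes had a lower estimate on the Si-based diet, and 0 of 32 passed the test after adjustment. Of 32 genes 29 were below 0 (all genes tested: 49.7%), and the median was -0.47 (all genes: 0.00). At unadjusted p 21 were lower and 0 higher (all genes: 2.23% and 1.51%). Members of this list, as of all 38, were chosen with earlier results of these data known, so such counts describe these libraries only. Col1a1, a chain of collagen I (chromosome 11, 94936224 to 94953042), was at 1532, 1417, 1799, 1173, 1502 and 1506 CPM in UUO_Si and at 1595, 1637, 1652, 2980, 2924 and 2470 CPM in UUO. UUO replicates 1 to 3 lay inside the UUO_Si range and replicates 4 to 6 above it. The interval of its difference was -0.99 to -0.15. That range excludes a 2-fold decrease on the diet and reaches a 1.11-fold one at its near end.

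UUO replicates 4 to 6 were likewise above the other 9 libraries in Col3a1 of collagen III, Fn1 (fibronectin), Postn (periostin) and Col6a3. Intervals were -0.90 to -0.06 for Col3a1, -0.83 to -0.14 for Fn1, -1.74 to -0.39 for Postn and -1.01 to -0.25 for Col6a3. Fbln1, which encodes the matrix protein fibulin 1, was at 77.3 to 109 CPM in UUO_Si and 85.8 to 185 CPM in UUO (-0.52 ± 0.15). Ctgf, a matricellular target of TGF-beta, was at 234 to 520 against 228 to 485 CPM, with an interval of -0.30 to 0.51 that excludes a 1.5-fold change either way. All 32 matrix genes passed as higher in UUO than in sham (all genes: 4609 of 16752). The diet interval was inside 2-fold for 22 of 32, a smaller share than the 85.1% of all genes.

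Enzymes that fold, trim and crosslink collagen followed with smaller values. All 16 were below 0, with a median of -0.26, and 7 were lower at unadjusted p (all genes: 2.23%). Without the receptor-gene libraries 14 of 16 were below 0, with a median of -0.18. Bmp1, the procollagen C-proteinase, was at -0.41 ± 0.12, Serpinh1, the collagen chaperone HSP47, at -0.31 ± 0.10 and Adamts2, the procollagen N-proteinase, at -0.52 ± 0.18. Basement membrane genes had a median of -0.15 with all 17 intervals inside 1.5-fold, such as Col4a1 (-0.25 ± 0.09). Proteases and their inhibitors were at -0.20 (16 of 19 below 0, 3 lower at unadjusted p), or -0.10 with 12 of 19 below 0 without the receptor-gene libraries, with Mmp2 at -0.24 ± 0.10 and Timp2 at -0.41 ± 0.16.

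Tgfb1, which encodes the growth factor that induces matrix genes, was at 70.6 to 85.2 CPM in UUO_Si and 74.6 to 90.8 CPM in UUO (-0.13 ± 0.09), and its interval of -0.32 to 0.06 excludes a decrease beyond 1.25-fold. Of 21 TGF-beta signalling genes 2 were lower at unadjusted p (all genes: 2.23%), with a median of -0.10. Inhba, which encodes a subunit of activin A, stood farthest down at -0.70 ± 0.23. Of 19 Wnt ligands and antagonists 17 were below 0 and 4 lower at unadjusted p (all genes: 49.7% and 2.23%), with a median of -0.18. After Sfrp4 these included Sfrp2 (-0.60 ± 0.20) and Sfrp1 (-0.39 ± 0.14), of the same family of secreted antagonists.

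Contractile genes of smooth muscle and myofibroblasts were all below 0, 11 of 15 at unadjusted p (all genes: 2.23%), with a median of -0.52. Acta2, smooth muscle actin, was at 147, 173, 102, 119, 143 and 171 CPM in UUO_Si and 140, 148, 174, 360, 377 and 322 CPM in UUO (-0.83 ± 0.26). As with collagen, UUO replicates 4 to 6 were high, and the other 9 libraries shared the range of 102 to 174 CPM. Actg2, the actin of visceral muscle, was at 5.39 to 11.7 CPM in UUO replicates 1 to 3, at 33.3 to 56.8 CPM in replicates 4 to 6 and at 0.792 to 7.04 CPM in UUO_Si. Cnn1 (calponin) was at -1.97 ± 0.52, Tpm2 (a tropomyosin) at -0.60 ± 0.16 and Tagln (transgelin) at -0.52 ± 0.17.

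Fibroblast and pericyte markers were mostly below 0. Pdgfrb of pericytes was at 250 to 296 CPM in UUO_Si and 246 to 398 CPM in UUO (-0.22 ± 0.10), and Pdgfra of fibroblasts at -0.05 ± 0.11 with an interval of -0.28 to 0.19. Pi16, which marks adventitial fibroblasts, was at 4.75 to 23.2 against 9.01 to 71.8 CPM (-1.37 ± 0.46), and Twist2, at under 2 CPM, at -1.56 ± 0.47. Of the 18 markers 16 were below 0 and 5 lower at unadjusted p (all genes: 49.7% and 2.23%), with a median of -0.21. In whole kidney, fewer cells of a type and less RNA per cell cannot be told apart.

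Markers of other tissues in or beside the kidney were read in the same libraries. Urothelial markers, of the lining of the renal pelvis, were below 0 in 9 of 10 tested genes, with a median of -0.68. At unadjusted p 5 were lower (all genes: 2.23%), and none of the 11 in the table was at 0 throughout a group. Their summed level was 139 to 249 CPM in UUO_Si, 112 to 334 CPM in UUO and 16.9 to 40.4 CPM in sham. Upk3a, which encodes a plaque protein of urothelium, was at 0.566 to 4.90 and 1.0 to 15.3 CPM. Erythroid transcripts were below 0 in 7 of 8, 6 at unadjusted p, with a median of -1.06; Hba-a1 and Hba-a2 had identical values in all libraries and are not separate measurements. Summed erythroid levels were 78.6 to 101 CPM in UUO replicates 1 to 3, 241 to 333 CPM in replicates 4 to 6, 66.0 to 166 CPM in UUO_Si and 195 to 253 CPM in sham. Fat and adrenal markers summed to 314 CPM in UUO replicate 6 and 365 CPM in UUO_Si replicate 6, against 60.0 to 108 CPM in the other obstructed libraries. The part of these tissues in the matrix and muscle values was not tested.

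Without the receptor-gene libraries, the median was -0.34 for matrix genes (29 of 32 below 0), -0.36 for contractile genes (15 of 15), -0.50 for urothelium and -0.66 for erythroid transcripts. UUO replicate 4 stayed in this comparison. Its matrix genes summed to 25046 CPM, against 13655 to 15502 CPM in UUO replicates 1 to 3 and 12581 to 16429 CPM in UUO_Si. Contractile genes summed to 4001 CPM in UUO replicate 4, 2699 to 3001 CPM in UUO replicates 1 to 3 and 2410 to 2740 CPM in UUO_Si. The count of genes at unadjusted p was 388 on the higher side without the receptor-gene libraries. When single libraries were left out, that count was 235 lower and 158 higher without UUO replicate 4, and 222 lower without UUO replicate 5. It was 740 lower and 449 higher without UUO_Si replicate 6, 394 higher without UUO_Si replicate 5, and 168 higher without UUO_Si replicate 1. Where a side is not given, its count was within 1.5-fold of that in the main fit (373 lower, 253 higher). In each of these fits 0 genes passed after adjustment.

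**Figure D3:**
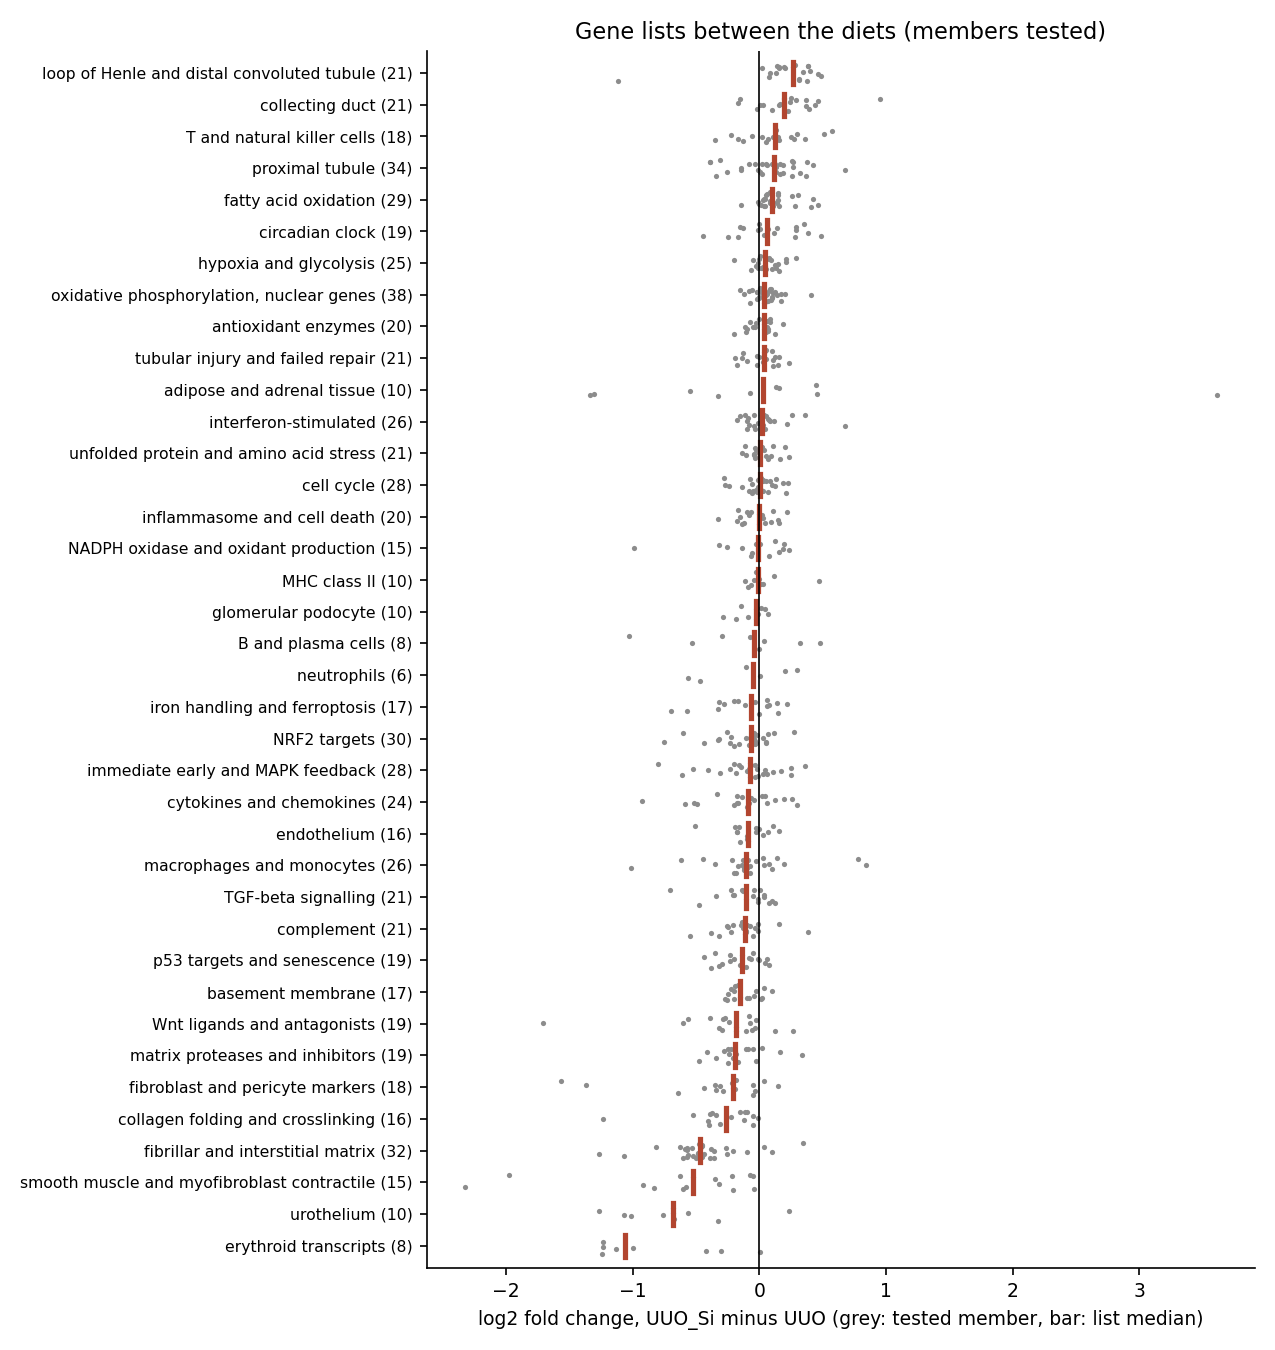
Log2 fold change, UUO_Si minus UUO, of each tested member (grey points) of 38 gene lists, with the list's median (bar) and the number of tested members in brackets. Lists of stroma, muscle, urothelium and blood lie below 0, down to -1.06, and lists of the distal nephron above 0, up to 0.27.

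Distal nephron genes stood on the other side, toward the sham level. Of 21 genes of the loop of Henle and distal convoluted tubule 20 were above 0, with a median of 0.27. Of 21 collecting duct genes 18 were above 0, with a median of 0.20. In each list 5 were higher at unadjusted p (all genes: 1.51%). Slc12a1, the sodium-potassium-chloride carrier that furosemide blocks, was at 517, 485, 315, 509, 369 and 408 CPM in UUO_Si and 442, 373, 377, 318, 270 and 219 CPM in UUO (0.38 ± 0.16). The groups overlapped, and sham was at 1964 to 2036 CPM. Umod, the urinary protein of the thick ascending limb, spread more widely on the Si-based diet, at 704 to 1626 CPM against 809 to 1072 CPM, with an interval of -0.02 to 0.71. Egf, a growth factor made there, was at 43.9 to 112 and 38.6 to 70.1 CPM (0.49 ± 0.21) and at 3314 to 3912 CPM in sham.

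In the collecting duct the water channel gene Aqp2 was at 29.9, 12.8, 11.3, 13.8, 5.90 and 27.5 CPM in UUO_Si and 6.51, 6.47, 7.28, 10.9, 11.0 and 10.3 CPM in UUO. It had 5 of 6 UUO_Si libraries above all of UUO, and UUO_Si replicate 5 below all of them. Its interval of 0.31 to 1.60 does not exclude a 3-fold difference. Rhcg, an ammonia channel, was at 0.39 ± 0.14, and the sodium channel subunits Scnn1a and Scnn1g at 0.24 ± 0.10 and 0.37 ± 0.16.

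Proximal tubule genes were undecided in direction. Of 34 genes 24 were above 0 and 1 was higher at unadjusted p (all genes: 50.3% and 1.51%), with a median of 0.12. The 1 higher gene was Cyp4b1 (0.37 ± 0.17). The median was 0.29 without the receptor-gene libraries and -0.16 without UUO_Si replicate 6. Lrp2, the endocytic receptor megalin, was at 320 to 850 CPM in UUO_Si and 384 to 740 CPM in UUO, with an interval of -0.27 to 0.59. Slc34a1, the phosphate carrier, was at 34.4 to 213 and 54.2 to 149 CPM (-0.60 to 0.97), and Pck1 of gluconeogenesis at 48.6 to 303 and 66.7 to 144 CPM. Kl, which encodes Klotho, was at 38.4 to 91.5 and 39.3 to 78.1 CPM (-0.18 to 0.65). The spread between libraries was wide in this list, with a median SD of 0.678 in UUO_Si and 0.568 in UUO on the log2 scale, and 4 of 34 intervals were inside 1.5-fold.

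Genes of tubular injury and failed repair showed no difference that passed, with estimates from -0.20 to 0.24. All 21 lay inside 2-fold and 18 inside 1.5-fold (all genes: 85.1% and 66.5%), 0 had an unadjusted p under 0.05 and the median was 0.04. The shares over all genes include genes of low level. Inside 1.5-fold were 92.0% of genes at 20 to 100 CPM and 93.1% at 100 CPM or more. Havcr1 was at 177, 173, 177, 141, 61.7 and 225 CPM in UUO_Si and 116, 105, 112, 91.1, 223 and 288 CPM in UUO. Its interval of -0.60 to 0.67 excludes a decrease beyond 1.52-fold and an increase beyond 1.59-fold. The interval was -0.58 to 0.40 for Lcn2, the iron-binding protein NGAL, -0.51 to 0.48 for Spp1 (osteopontin), and -0.24 to 0.31 for Vcam1, a marker of failed repair. Narrower still were Sox4 (-0.29 to 0.04) and Cp, ceruloplasmin (-0.02 to 0.32).

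**Figure D4:**
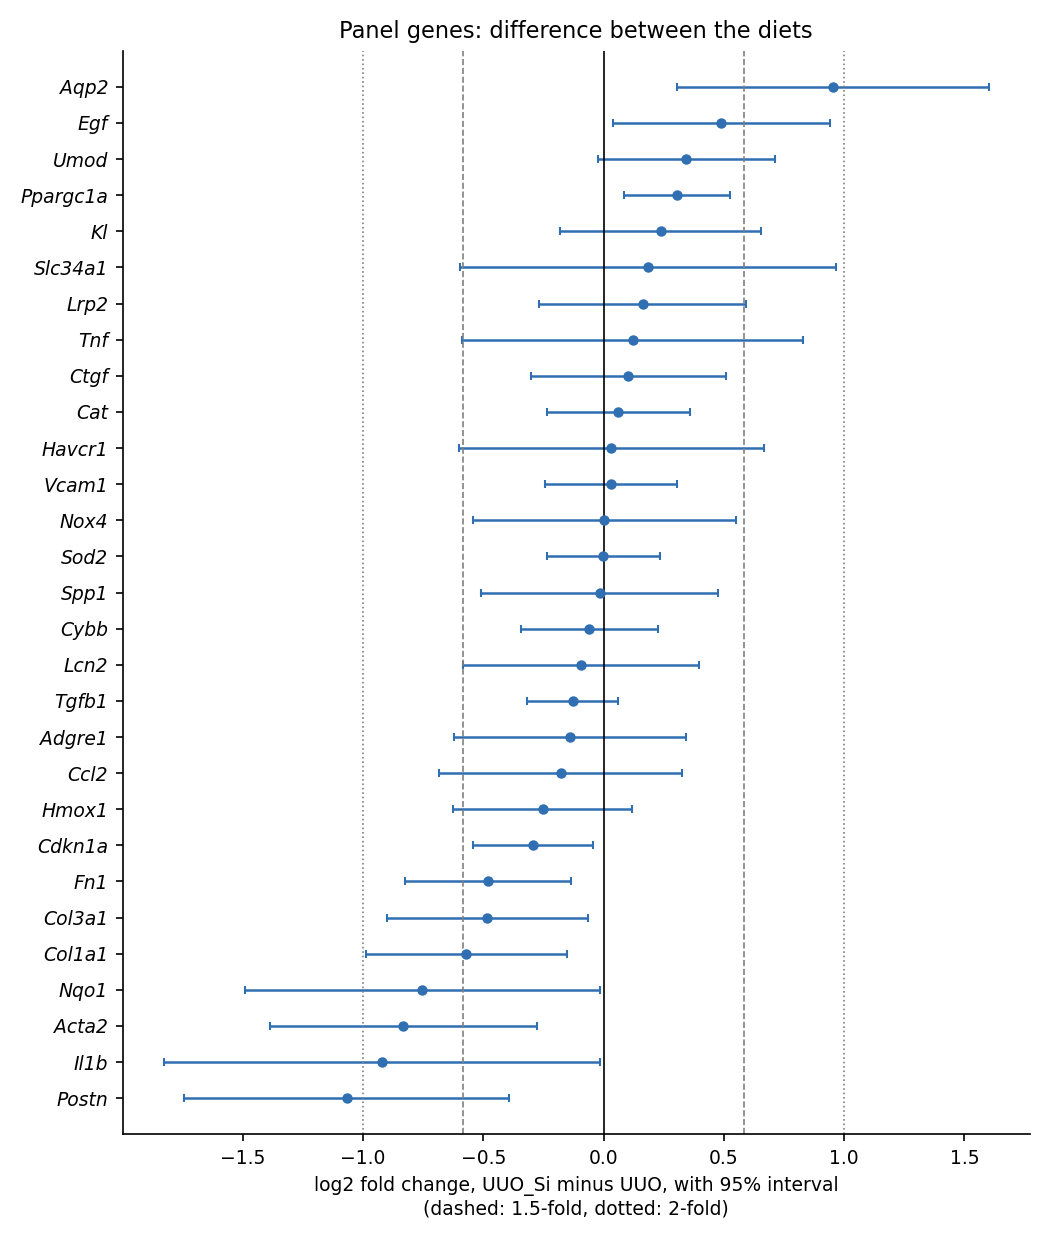
Log2 fold change, UUO_Si minus UUO, with its 95% interval for 29 panel genes of fibrosis, tubule, injury, inflammation and oxidant handling, with lines at 1.5-fold (dashed) and 2-fold (dotted). Vcam1, Sod2 and Cybb lie inside 1.5-fold, which not all injury and oxidant genes do, while Postn, Acta2 and Aqp2 reach past 2-fold on 1 side.

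Macrophage and monocyte markers did not differ past the test either. Of 26 genes 18 were below 0, 0 had an unadjusted p under 0.05, and the median was -0.10. Csf1r, the receptor that macrophages need to survive, was at 170 to 205 CPM in UUO_Si and 191 to 212 CPM in UUO. Its interval of -0.23 to 0.05 excludes a decrease beyond 1.17-fold. C1qa was at -0.35 to 0.14, Cd14 at -0.06 to 0.33 and Adgre1 (F4/80) at -0.62 to 0.34. Gpnmb and Retnla had 1 high library each in UUO_Si, replicate 1 at 65.9 CPM for Gpnmb and replicate 3 at 31.5 CPM for Retnla, against 5.44 to 11.6 and 3.70 to 8.92 CPM in the other 5.

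Cytokine and complement genes gave a similar account. Of 24 cytokine and chemokine genes 2 were lower at unadjusted p (all genes: 2.23%), Cxcl14 and Il1b. Cxcl14, an epithelial and fibroblast chemokine, was at 50.6 to 91.3 CPM in UUO_Si against 89.5 to 129 CPM in UUO (-0.49 ± 0.13). Il1b was at 2.38 to 6.75 against 3.47 to 21.2 CPM. UUO replicates 5 and 6 held Il1b at 13.9 and 21.2 CPM, and the other 10 libraries were at 6.75 CPM or below. Ccl2 (-0.69 to 0.33) and Tnf (-0.59 to 0.83) had wider intervals, at a mean of 10.2 and 3.38 CPM. Ccl2, a monocyte chemoattractant, ranged from 5.86 to 12.2 CPM in UUO_Si and 7.70 to 14.9 CPM in UUO. Complement genes were below 0 in 19 of 21, 12 of 21 without the receptor-gene libraries, and 0 were at unadjusted p under 0.05. MHC class II genes had a median of -0.01 (5 of 10 below 0, 8 without the receptor-gene libraries) and interferon-stimulated genes of 0.02 (11 of 26 below 0, 22 without those libraries), with 0 of 10 and 0 of 26 at unadjusted p, and Cd74 was at -0.48 to 0.25. UUO_Si replicate 3 stood high for Gbp2, an interferon-induced GTPase, at 367 CPM against 65.0 to 126 CPM in the other 5.

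Oxidant handling, to which hydrogen is most often tied, lay near 0. All 20 antioxidant enzyme genes were inside 2-fold and 19 inside 1.5-fold, with 0 at unadjusted p and a median of 0.04. The median was -0.08 without UUO_Si replicate 6 (17 of 20 below 0). It was 0.13 without the receptor-gene libraries (5 of 20 below 0). Sod2, the mitochondrial superoxide dismutase, was at 53.5 to 85.5 CPM in UUO_Si and 53.1 to 78.4 CPM in UUO (interval -0.24 to 0.23). Cat (catalase) had an interval of -0.23 to 0.36 and Gpx1 of -0.05 to 0.42. NRF2 drives a set of protective genes when oxidants rise, and 24 of 30 of its targets were below 0. That count was 13 of 30 without the receptor-gene libraries and 28 of 30 without UUO_Si replicate 6. At unadjusted p 2 were lower (all genes: 2.23%), Nqo1 (-0.75 ± 0.35) and Gsta4 (-0.60 ± 0.28), and Hmox1 was at -0.63 to 0.12. UUO replicates 5 and 6 held Nqo1 at 13.3 and 11.7 CPM, against 2.33 to 5.13 CPM in the other UUO libraries and 2.62 to 5.66 CPM in UUO_Si. Of 15 genes for NADPH oxidases and oxidant production 0 were at unadjusted p under 0.05, and Cybb, the catalytic subunit of phagocytes, was at -0.34 to 0.22 and Nox4 at -0.54 to 0.55.

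Mitochondrial genes were slightly on the higher side. Of 29 fatty acid oxidation genes 26 were above 0 and all were inside 2-fold (median 0.10), with Ppargc1a, the coactivator of mitochondrial genes, at 78.4 to 120 against 74.5 to 88.4 CPM (0.31 ± 0.10), and Pdk4 at 0.47 ± 0.20. Of 38 nuclear genes of oxidative phosphorylation 36 were inside 1.5-fold (all genes: 66.5%), with a median of 0.04. At unadjusted p 2 were higher (all genes: 1.51%), Ndufa4 (0.41 ± 0.13) and Ndufs1 (0.17 ± 0.08). Without UUO_Si replicate 6 these medians were 0.01 and -0.08, with 13 of 29 and 31 of 38 below 0. Without the receptor-gene libraries they were 0.14 and 0.11, with 1 of 29 and 5 of 38 below 0.

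Cell cycle genes had a median of 0.00 and all 28 intervals inside 2-fold, such as Mcm2 of replication licensing (-0.27 to 0.15). Targets of p53 and senescence genes were below 0 in 16 of 19, 4 lower at unadjusted p (all genes: 49.7% and 2.23%). Their median was -0.14, with Cdkn1a (p21) at -0.29 ± 0.12 and Plk2 at -0.35 ± 0.13. Immediate early and MAPK feedback genes, the class to which Phlda1 belongs here, had 5 of 28 lower at unadjusted p (all genes: 2.23%). Their median was -0.07. Junb was at 62.1 to 80.1 against 77.2 to 117 CPM (-0.41 ± 0.14), Etv5 at -0.31 ± 0.11 and the inhibitor Spry1 at -0.20 ± 0.09.

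To read the diet difference on the scale of the injury, both comparisons were set side by side for genes that obstruction had changed at least 4-fold. They share the UUO libraries, so a chance high value in UUO enters both, and the error of the obstruction change is not in the share. Of 1694 such genes the diet interval excluded a return of 50% or more toward sham for 1566 (92.4%), 858 of 911 raised genes (94.2%) and 708 of 783 lowered genes (90.4%). A return of 25% or more was excluded for 1019 (60.2%). The interval lay wholly past 50% for 0 genes. Col1a1 was at 5.35 ± 0.33 in UUO against sham and -0.57 ± 0.20 between the diets, Egf at -6.00 ± 0.27 and 0.49 ± 0.21, and Havcr1 at 7.67 ± 0.69 and 0.03 ± 0.30. Of the genes changed at least 4-fold by obstruction whose diet interval excluded 0, the estimated share was largest for Col6a4 (2.13 ± 0.75 and -1.61 ± 0.53). It was also past 50% for Aldh3a1 (2.15 ± 0.82 and -1.60 ± 0.57), at a mean of 2.37 CPM. The same held for Sfrp4 (3.27 ± 0.57 and -1.71 ± 0.36) and Actg2 (3.20 ± 0.91 and -2.32 ± 0.61). Fmod (2.05 ± 0.74 and -1.36 ± 0.52), which encodes the collagen-binding fibromodulin, and Epha3 (2.01 ± 0.42 and -1.02 ± 0.29) were past it as well.

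Spread between libraries was similar over all genes. The SD of the log2 level was larger in UUO for 50.7% of genes, with medians of 0.246 in UUO and 0.25 in UUO_Si. In limma on absolute deviations from the group median, 0 genes passed (0%), the smallest adjusted p being 0.285, and at unadjusted p 273 genes (1.63%) were wider in UUO and 242 (1.44%) in UUO_Si. This test finds few differences in spread with 6 libraries a group, as simulated data showed, so a count of 0 says little. Leaving out 1 library makes the groups unequal in size, so their deviations are not biased alike and the sides of a count cannot be compared. Without UUO_Si replicate 6 the test called 4 genes, with 1067 wider in UUO and 73 in UUO_Si at unadjusted p. Without any other single UUO_Si library it called 0, with 201 to 273 wider in UUO and 48 to 72 in UUO_Si. Without a single UUO library it called 0, with 34 to 67 wider in UUO and 181 to 257 in UUO_Si.

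Matrix genes were among the wider in UUO. The SD was larger there for 29 of 32 of them, with medians of 0.423 and 0.235, and for 13 of 15 contractile genes (0.366 and 0.197), 15 of 17 basement membrane genes and 13 of 16 collagen folding genes. Adamts2 had the smallest p of the spread test among genes of at least 5 CPM (adjusted p = 0.549, limma), at 105 to 234 CPM in UUO against 112 to 134 CPM in UUO_Si, and UUO replicates 4 to 6 were at 224 to 234 CPM. Igfbp2 was at 14.9 to 17.7 CPM in UUO replicates 1 to 3, 33.7 to 50.1 CPM in replicates 4 to 6 and 11.6 to 16.9 CPM in UUO_Si. Fzd2, a Wnt receptor, was at 10.8 to 25.4 against 11.1 to 14.5 CPM.

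Other groups were wider on the Si-based diet. The SD was larger in UUO for 5 of 28 cell cycle genes (medians 0.237 in UUO and 0.389 in UUO_Si) and for 2 of 10 MHC class II genes (0.242 and 0.413). Cell cycle genes summed to 1116 CPM in UUO_Si replicate 3, against 685 to 864 CPM in the other 5 and 747 to 954 CPM in UUO. MHC class II genes summed to 4360 and 4577 CPM in UUO_Si replicates 3 and 6, against 2290 to 3006 CPM in the other 4 and 2636 to 4122 CPM in UUO. Rpa3, which encodes a subunit of a single-strand DNA binding complex, was at 5.45 to 6.04 CPM in UUO and 4.39 to 9.5 CPM in UUO_Si, and Cd48, a leukocyte surface gene, at 10.8 to 13.2 and 8.01 to 14.7 CPM. Library totals were smaller in UUO_Si, and their part in these spreads was not tested.

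**Figure D5:**
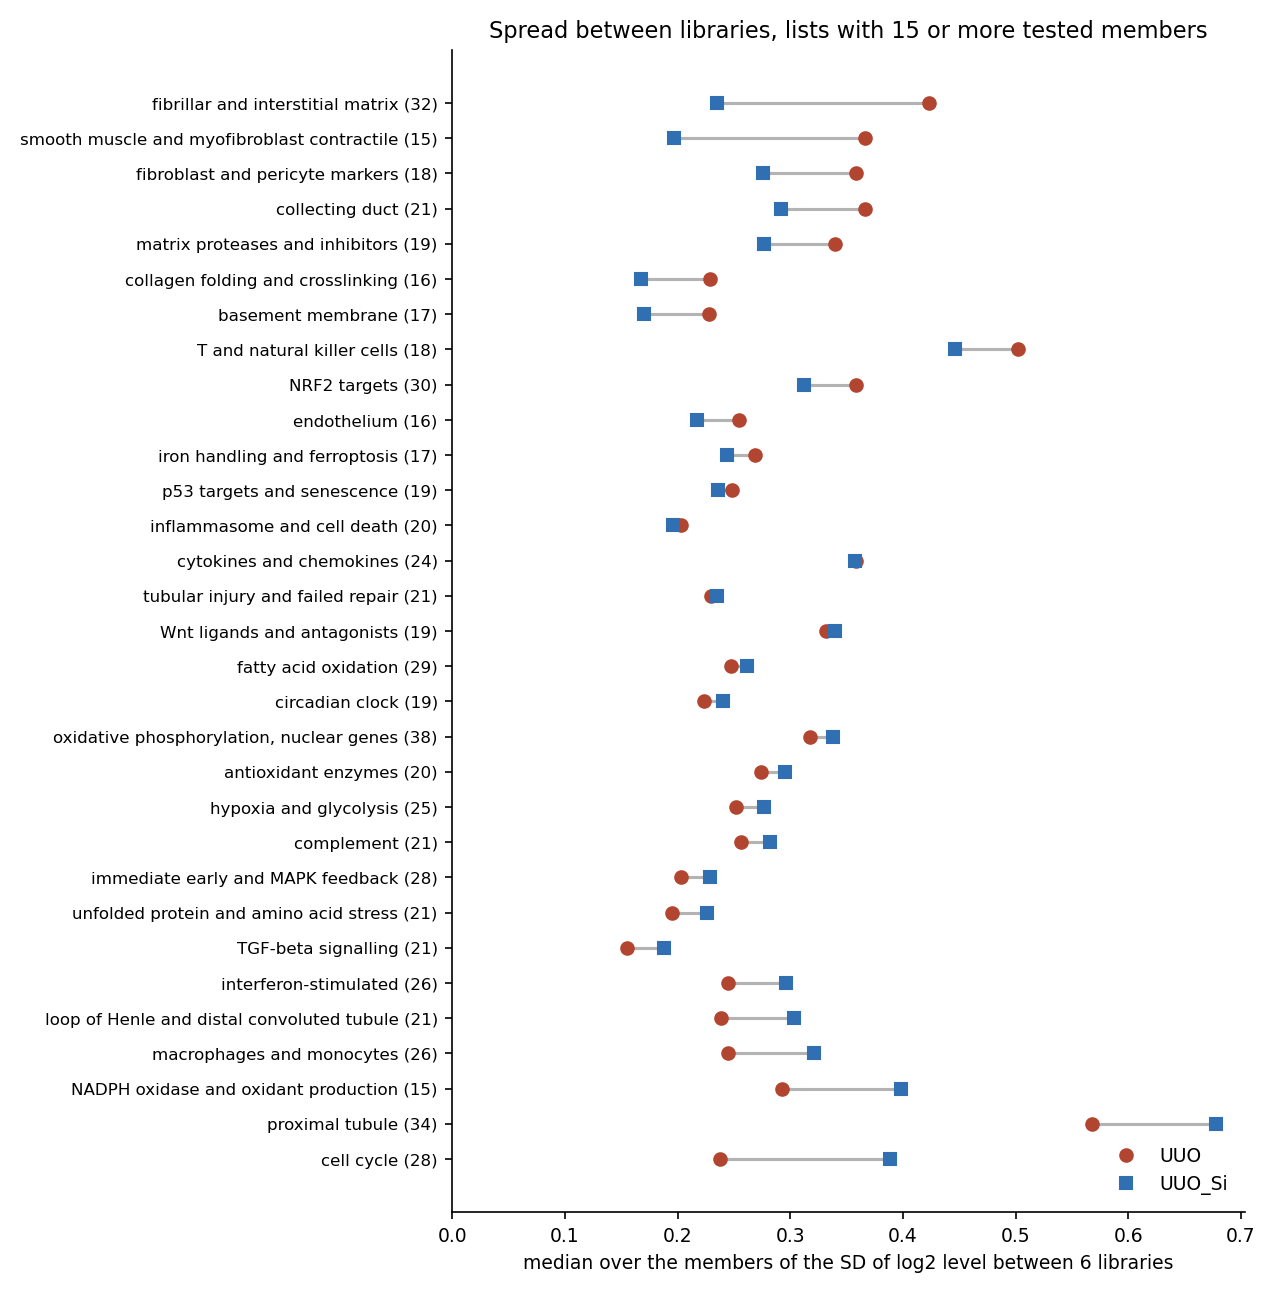
Median over list members of the SD of the log2 level between the 6 libraries of UUO (circles) and of UUO_Si (squares), for 31 lists with at least 15 tested members. Matrix and contractile genes spread more in UUO, and cell cycle, proximal tubule and NADPH oxidase genes more in UUO_Si.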

How the data were processed

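Per the labels' protocols, kidney tissue was stabilised in RNAlater, RNA was purified by RNeasy, and a stranded total RNA kit for low input (SMARTer Pico) was used. The table holds 24421 gene symbols in 15 libraries. The authors deposited estimated counts per gene, made from reads on mm10 with TopHat2 2.1.1 and Cuffdiff 2.2.1 among the named tools, per the submitters' processing notes, which give neither roles nor the strand setting. That they are estimated counts was read from the values: library totals differ and 79% to 83% of a library's values are whole. They were rounded here.

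All 15 libraries entered a single edgeR 4.0.16 quasi-likelihood fit (R 4.3.3, robust, TMM scaling, filter at a minimum count of 10), with Benjamini-Hochberg adjustment over 16752 genes and calls at 0.05. SE is the absolute log2 fold change over the square root of F, and 95% intervals use the test's degrees of freedom. The spread test used limma 3.58.1 on log2 CPM with a prior count of 2. DESeq2 1.42.0, limma-voom and other settings were alternatives. The fit and the spread test were tested on simulated data. Library measures had exact permutation tests (smallest possible p 0.00216 for 6 against 6). Positions are from GENCODE M21, which held 95.7% of the symbols. Named genes were the 20 with the smallest p at 5 CPM or more, up to 4 members of each of 38 lists by p and 3 by narrowness of the interval, a fixed panel, and those leading in spread or return; 2 named genes were added after values were seen, Tsc22d3 and Snora21. Members and lists were chosen with earlier results of these data known.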

Additional observations from a re-analysis of the deposited data

Results flagged for a closer look

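In 18 of 232 groups of 6 libraries looked at (7.76%), 1 library stood apart from the other 5 by more of the group's range than a set limit, which chance exceeds in about 1 of 20 groups.

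UUO_Si replicate 3 accounted for 7 of them. It was lowest for the muscle genes Actg2 (0.792 CPM, others 4.0 to 7.04) and Cnn1 (1.02 CPM, others 3.75 to 7.79) and for the urothelial genes Upk3a (0.566 CPM, others 3.33 to 4.90) and Upk1a (1.36 CPM, others 6.41 to 7.91). It was also lowest for the chemokine gene Cxcl14 (50.6 CPM, others 75.7 to 91.3). It was highest for Snora23 (17.3 CPM, others 8.63 to 10.6) and for the share of Rn45s (4.45%, others 2.13% to 2.84%).

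UUO_Si replicate 6 accounted for 4. It had 22146 genes detected (others 18792 to 18956) and 1025 olfactory and vomeronasal receptor genes (others 108 to 146), the largest mean distance to its group (0.715, others 0.495 to 0.565) and Ucp1, the uncoupling protein of brown fat, at 19.3 CPM (others 0 to 0.199). UUO replicate 6 was likewise farthest from its group (0.709, others 0.513 to 0.570).

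UUO replicate 2 was lowest for Olfml2a (5.08 CPM, others 9.51 to 13.0), Tgfb1 (74.6 CPM, others 86.0 to 90.8) and the glutathione transferase gene Gsta4 (14.2 CPM, others 41.2 to 73.0). UUO replicate 4 was lowest for Snora23 (4.18 CPM, others 6.01 to 6.85). In UUO_Si, replicate 5 was lowest for Havcr1 (61.7 CPM, others 141 to 225) and replicate 1 highest for Gpnmb (65.9 CPM, others 5.44 to 11.6).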

How the results depend on the processing

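Counts of genes at an unadjusted p and of list members below or above 0 under other settings were added after the data were seen. No gene was called between the diets by edgeR under any setting or by limma-voom, against 2 by DESeq2 (Phlda1 at -0.61 and Sfrp4 at -1.73); 0 were called with any library left out. Genes with intervals inside 2-fold numbered 13783 to 14624, inside 1.5-fold 10499 to 11922, and called between UUO and sham 7719 to 10061. At unadjusted p under 0.05, limma-voom gave 733 lower and 624 higher; the higher count was 388 without the receptor-gene libraries and 389 with a term for them; with 1 library left out, 222 to 740 were lower and 158 to 449 higher. Where only the higher count is given, the lower one stayed within 1.5-fold of the main fit's. The spread test called 0 to 4 genes with 1 library left out, which makes the groups unequal in size. The cause of these shifts was not tested.

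The labels do not say whether equal replicate numbers pair samples, and the numbers were not used as pairs in the main fit. Same-numbered libraries correlated at -0.39 to 0.75 and 2 of 12 correlated best with their own number, which cannot settle it. With a replicate block 464 genes were lower and 241 higher at unadjusted p, 0 were called, and the difference in total counts (-3.59 in units of 1000000) no longer passed (exact permutation of pairs, adjusted p = 0.141). The number of genes detected differed by -270.4 without the receptor-gene libraries (exact permutation, adjusted p = 0.0357).

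Medians moved by more than 1 SD for T and natural killer cells (-0.16 without the receptor-gene libraries), erythroid transcripts (-0.37 with ribosomal RNA and haemoglobin genes removed, which takes members out) and fat and adrenal markers (-2.35 to 0.99 with 1 library left out). Signs of genes near 0 turned, and so did that of Ucp1, which was far from 0 in edgeR. Without the receptor-gene libraries Lcn2 was at 0.20, Spp1 at 0.17, Vcam1 at -0.028 and Tnf at -0.059; with a term for them Lcn2 was at 0.10, Spp1 at 0.12 and Sod2 at 0.039. In limma-voom Lcn2 was at 0.14, Spp1 at 0.10 and Vcam1 at -0.014. Ucp1 was at -0.42 there, against 3.37 to 4.07 in edgeR with 1 library left out, where tested. In UUO_Si its level was 19.3 CPM in replicate 6 and 0 to 0.199 CPM in the others. Nox4 was at -0.0011 with RLE size factors, -0.0048 with upper-quartile scaling, -0.00093 with no filter, -0.0022 with ribosomal RNA and haemoglobin genes removed and -0.0036 in DESeq2. With 1 library left out, ranges crossing 0 were -0.00018 to 0.22 for Ctgf, -0.084 to 0.026 for Pdgfra, -0.18 to 0.39 for Slc34a1, -0.10 to 0.29 for Havcr1, -0.21 to 0.10 for Lcn2, -0.20 to 0.12 for Spp1, -0.025 to 0.093 for Vcam1, -0.034 to 0.13 for Cat, -0.10 to 0.054 for Sod2, -0.23 to 0.20 for Nox4, -0.11 to 0.0018 for Cybb, -0.32 to 1.03 for Gpnmb, -0.015 to 0.95 for Retnla, -0.16 to 0.013 for Cd48 and -0.032 to 0.028 for Clock. Low counts leave wide intervals for genes under 1 CPM.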

Other observations

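A list of 8 genes that corticosteroids induce was drawn up after Sgk1 and Usp2 had been seen, so it describes these libraries only. All 8 were above 0, 6 at an unadjusted p under 0.05 (all genes, higher: 1.51%), with a median of 0.37, and 8 of 8 were above 0 without the receptor-gene libraries (median 0.29). Tsc22d3, which encodes the glucocorticoid-induced leucine zipper, was at 143, 106, 80.7, 105, 99.1 and 88.3 CPM in UUO_Si and 66.1, 92.6, 76.8, 86.0, 60.3 and 57.9 CPM in UUO (0.50 ± 0.14). Its groups overlapped, and sham was at 69.5 to 94.3 CPM. Summed over the list, UUO_Si libraries were at 614 to 841 CPM and UUO libraries at 475 to 768 CPM, below the 1484 to 1899 CPM of sham. No adrenal weight or hormone level is among the data used here.

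Without the receptor-gene libraries, 60 small nucleolar RNA genes were tested, and 55 of them were above 0, with a median of 0.38.

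Of 10 further lists, 5 are of cell types, and each is given with all libraries and without the receptor-gene libraries. Podocyte markers had 7 of 10 below 0 and a median of -0.03, against 10 of 10 and -0.17 without those libraries. Endothelial markers had 12 of 16 below 0 and a median of -0.09, against 12 of 16 and -0.10 without those libraries. T and natural killer cell markers had 5 of 18 below 0 and a median of 0.12, against 11 of 17 and -0.16 without those libraries. B and plasma cell markers had 5 of 8 below 0 and a median of -0.04, against 4 of 7 and -0.0027 without those libraries. Neutrophil markers had 3 of 6 below 0 and a median of -0.05, against 1 of 4 and 0.10 without those libraries. Genes of the inflammasome and cell death had 9 of 20 below 0 and a median of 0.00, against 15 of 20 and -0.05 without those libraries. Hypoxia and glycolysis genes had 6 of 25 below 0 and a median of 0.04, against 2 of 25 and 0.08 without those libraries. Unfolded protein and amino acid stress genes had 10 of 21 below 0 and a median of 0.01, against 7 of 21 and 0.05 without those libraries. Iron handling and ferroptosis genes had 11 of 17 below 0 and a median of -0.06, against 7 of 16 and 0.05 without those libraries. Fat and adrenal markers had 5 of 10 below 0 and a median of 0.03, against 0 of 7 and 0.27 without those libraries. Over these 10 lists 1 tested member was lower and 2 were higher at an unadjusted p under 0.05 (all genes: 2.23% and 1.51%). After adjustment 0 passed in edgeR, where the smallest adjusted p of any gene was 0.874.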
